A study of Sus scrofa with 6 samples.

Results

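SNARE proteins, synaptotagmins and their syntaxin-binding partners are the membrane fusion machinery of a cell, and 45 genes of this kind were found among the 19300 genes listed in 6 single pig oocytes. They were taken by name alone: a gene belonged if its pig symbol began with STX and a digit, STXBP, VAMP, SNAP and a digit, SYT and a digit, GOSR or BET1. The name also took SNAP91, a clathrin assembly protein that is no SNARE, and it is kept apart below. The symbol table held 55 such symbols. The 10 others, among them SNAP25, STX19, STXBP4, SYT10, SYT13, SYT4, SYT7, SYT8 and VAMP5, matched no row by gene ID and were not analysed here.

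The oocytes were at the germinal vesicle stage, before meiotic maturation, and came from antral follicles of 3 to 6 mm. They were sorted by brilliant cresyl blue (BCB), a dye that growing oocytes tend to decolourise and fully grown oocytes tend to retain. BCB-negative oocytes (n = 3) had lost the colour and BCB-positive oocytes (n = 3) had kept it. Both classes were freed of cumulus cells with hyaluronidase and of the zona pellucida with pronase, were not cultured for maturation, and each oocyte made 1 library. No breed, age or animal is given for any oocyte in the labels. Each class was therefore treated as 1 sample of 3 cells, differences are described, and no test between classes was made.

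Membrane fusion in secretion is driven by SNAREs on the vesicle, such as the VAMPs, that zip together with SNAREs on the target membrane, the syntaxins and SNAP25 relatives. Sec1/Munc18 proteins (SM proteins, among them STXBP2 and STXBP3) guide that assembly, and synaptotagmins couple it to calcium. In an oocyte the same machinery carries new proteins through the Golgi, feeds endosomes and lysosomes, and at fertilisation releases cortical granules, whose contents modify the zona pellucida against further sperm.

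Expected counts summed to between 7.12e+06 and 9.24e+06 per oocyte. BCB-positive oocyte 3 was the deepest library and stood apart, with a mean Pearson correlation of 0.874 with the other oocytes across 11493 genes, which are not independent replicates, against 0.905 to 0.915 for the rest. Of 8 oocyte markers, the zona pellucida gene ZP3 was the most abundant, between 5602 and 18993 FPKM (fragments scaled by transcript length and library depth). The markers were not all high: DDX4 fell to 10.25 FPKM in BCB-positive oocyte 1. NLRP5 was at most 2.11 FPKM, and at 0 in BCB-negative oocyte 2. Of 12 cumulus and granulosa markers 7 were listed, with a summed level of 1.46 to 4.46 FPKM in BCB-negative and 1.44 to 5.60 FPKM among BCB-positive oocytes. SERPINE2 reached 4.35 FPKM, INHA 1.54 FPKM and AMH 0.76 FPKM in an oocyte, while CYP11A1, CYP19A1, PTX3 and TNFAIP6 were at most 0.35 FPKM. Markers of nerve and neuroendocrine cells, where many of these fusion proteins are best known, were 8, of which 5 were listed. They summed to 1.35 to 3.57 FPKM in BCB-negative and 1.39 to 3.75 FPKM in BCB-positive oocytes. CHGB, the most abundant, was at 2.89, 0.88 and 2.78 FPKM and at 0.81, 3.62 and 2.05 FPKM, with overlapping classes. The synaptic vesicle genes SYP and SYN1 were at most 0.37 FPKM. Of 8 blood and endothelial markers 3 were listed. They summed to 1.23 to 3.11 FPKM in BCB-negative and 5.22 to 8.36 FPKM among BCB-positive oocytes. The T cell gene CD3E was at 0.90, 0.11 and 1.19 FPKM, then at 4.54, 4.60 and 2.37 FPKM, with no overlap. In 7.44% of all genes compared, every BCB-positive oocyte was likewise the higher. PECAM1 was at 2.21, 1.78 and 0.04 FPKM, then at 0.68, 3.76 and 2.56 FPKM, with overlapping classes. The leukocyte gene PTPRC was at 0 in all oocytes but BCB-positive oocyte 3, at 0.56 FPKM. The part of such signal in the differences below was not tested.

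Of the 45 genes, 36 had a mean of at least 1 FPKM over the 6 oocytes and were compared between classes. Their median level was 16.6 FPKM, against 8.98 FPKM over all 11493 genes compared. Of the 36, 4 (11.1%) were above 100 FPKM, as were 10.7% of all genes. The remaining 9 were STX10, STXBP2, VAMP2, SYT1, SYT3, SYT6, SYT9, SYT11 and SYT12. STXBP5L, at a mean of 1.01 FPKM, lay just inside that minimum, and VAMP2, at 0.73 FPKM, and SYT6, at 0.70 FPKM, just outside it. The 9 low genes had 11 to 140 counts each over the 6 oocytes. SYT9, a synaptotagmin of dense-core granules, was listed at 0 in all BCB-negative oocytes and BCB-positive oocyte 1, and at 1.05 and 0.09 FPKM in the other BCB-positive oocytes. SYT11 stood at 0.08, 0 and 0.08 FPKM among BCB-negative, against 0.15, 0.36 and 0.77 FPKM among BCB-positive oocytes, on 21 counts. STX10, a trans-Golgi syntaxin, reached 2.26 FPKM in BCB-negative oocyte 1 and was at 0.69 FPKM or less elsewhere. STXBP2, SYT3 and SYT12 did not exceed 0.92 FPKM in any oocyte.

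The classes overlapped for 29 of the 36 genes. In 6 genes (16.7%) the lowest BCB-positive oocyte exceeded the highest BCB-negative oocyte, as it did in 7.44% of all genes. In 1 gene (2.78%) every BCB-positive oocyte was the lower, against 4.03% of all genes. All 7 were also at least 1.5-fold apart on the scale of log2(FPKM + 1), a limit that 5.75% of all genes passed as higher and 2.66% as lower. Among the higher genes were SNAP47, STX2, STX16, STXBP5 and SYT16, and the lower gene was STX18. Without BCB-positive oocyte 3, 4 of the 6 were still apart by 1.5-fold, while SNAP47 was not, and STX4 joined STX18 as lower. The shares over all genes were then 7.19% higher and 4.4% lower, where fewer oocytes had to be in order. After scaling by median-of-ratios size factors 4 of the 36 genes were higher and 1 lower, against 4.54% and 3.70% of all genes, and after scaling to a common FPKM sum 6 and 1, against 7.12% and 1.96%.

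**Figure D1:**
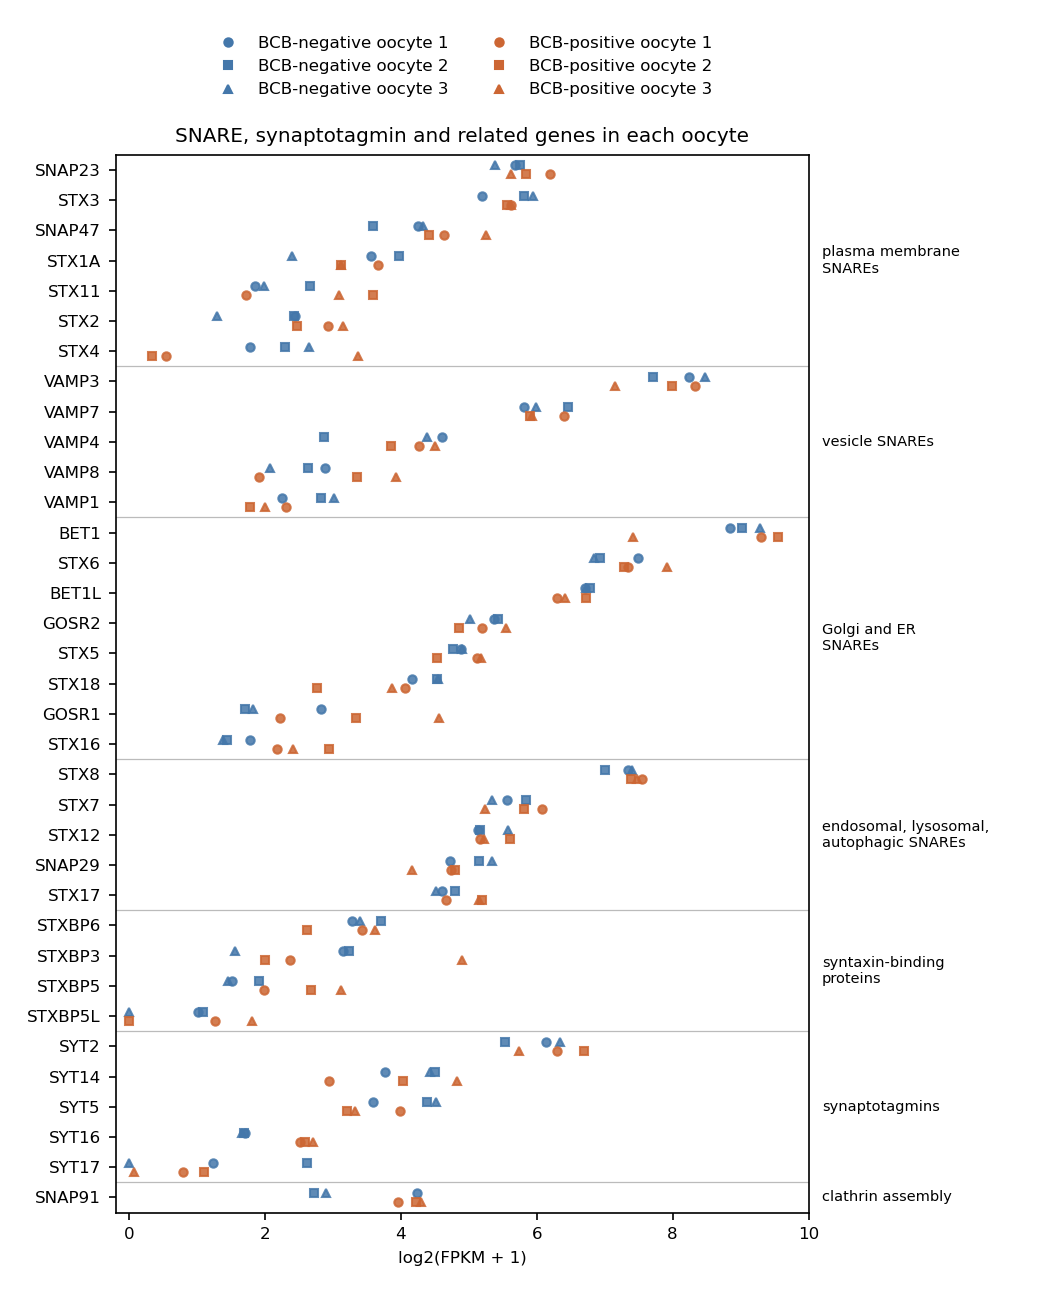
Level of 35 of the 36 genes compared, on the scale of log2(FPKM + 1), in the 3 BCB-negative (blue) and 3 BCB-positive (orange) oocytes, grouped by role; each point is 1 oocyte. BET1 and VAMP3 are the most abundant, and in most rows the orange and blue points are interleaved.

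The most abundant gene was BET1, a SNARE of vesicles moving from the endoplasmic reticulum (ER) to the Golgi. BET1 was at 460, 521 and 624 FPKM among BCB-negative oocytes 1, 2 and 3, against 630, 747 and 169 FPKM among BCB-positive oocytes 1, 2 and 3, which places its mean in the top 2.04% of genes. BCB-positive oocyte 3 was the low one (4.41-fold between the highest and lowest oocyte), and the classes overlapped. The difference of mean log2(FPKM + 1), BCB-positive minus BCB-negative, was -0.30 with a pooled SD between oocytes of 0.84, and 0.37 without BCB-positive oocyte 3. Summed over all 45 genes, that oocyte had 1501 FPKM against 1717 to 2069 FPKM in the rest. With BET1 left out it had 1332 FPKM, within the range of 1196 to 1410 FPKM of the other 5 oocytes. BET1, VAMP3, STX8, STX6 and BET1L together held 65.6% of the mean summed FPKM of the 45 genes.

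Among SNAREs of the vesicle membrane, VAMP3 led in every oocyte. VAMP3, also called cellubrevin and known from recycling endosomes, was at 303, 208.5 and 355 FPKM among BCB-negative, against 321, 253 and 142 FPKM among BCB-positive oocytes. It held 58.8% to 79.2% of the summed VAMP FPKM of an oocyte, and its classes overlapped (difference -0.32, SD 0.51). VAMP7, of late endosomes and lysosomes, came next at 55.2 to 87.3 FPKM with a difference of -0.01. This order rests on the listed transcript lengths, 643 bases for VAMP3 and 2579 to 2580 bases for VAMP7. In counts, which are not divided by length, VAMP7 had 8102 and VAMP3 7124 over the 6 oocytes. VAMP2, the main vesicle SNARE of nerve terminals, was between 0.31 and 1.03 FPKM and rested on 72 counts in all. VAMP1, its close relative, was at 3.78, 6.09 and 7.09 FPKM among BCB-negative, against 3.97, 2.44 and 3.02 FPKM among BCB-positive oocytes. Only BCB-negative oocyte 1 of the higher class reached down into the other, and the difference was -0.67 (SD 0.34). VAMP4, of the trans-Golgi network, and VAMP8, of endosomes and secretory granules, varied 3.71-fold and 5.20-fold between the highest and lowest oocyte, with differences of 0.25 and 0.53 that were smaller than their SDs of 0.71 and 0.79.

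**Figure D2:**
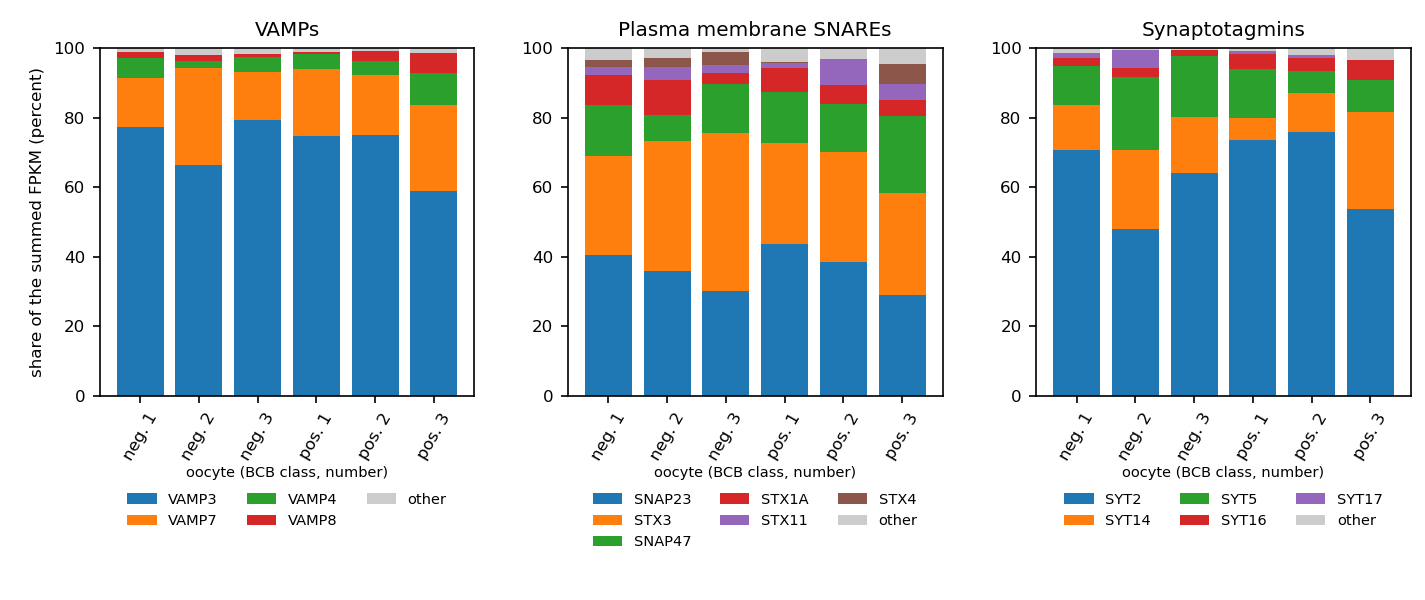
Share of the summed FPKM of the VAMPs (left), the plasma membrane SNAREs (middle) and the synaptotagmins (right) held by each gene in each oocyte; genes never reaching 5% are pooled as other. VAMP3 and SYT2 take the largest share in all 6 oocytes, while SNAP23 and STX3 each lead in 3.

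By FPKM the plasma membrane SNAREs were led by SNAP23 and STX3, each the most abundant of its group in 3 oocytes. In counts, which are not divided by length, STX3 had 6154, SNAP47 5442 and SNAP23 5000 over the 6 oocytes. SNAP23, the widely expressed relative of SNAP25, was at 50.1, 53.1 and 40.7 FPKM among BCB-negative, against 72.0, 56.6 and 48.2 FPKM among BCB-positive oocytes. STX3, a syntaxin of apical and granule membranes, was at 35.5, 55.4 and 60.8 FPKM and at 48.0, 46.5 and 48.4 FPKM. The ranges of these genes overlapped between classes and with each other, and the differences were 0.28 (SD 0.25) and -0.05 (SD 0.29). STX1A, the syntaxin of nerve terminals and endocrine cells, was lower at 4.25 to 14.7 FPKM (difference -0.01, SD 0.62). STX11, known from cytotoxic lymphocytes, was at 2.28 to 11.1 FPKM (difference 0.63, SD 0.75).

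STX2 and SNAP47 were the genes grouped here as plasma membrane SNAREs whose classes did not overlap. SNAP47 was listed with its SNAP25 relatives, and its location in the oocyte was not measured. SNAP47, a SNAP25 relative that is not anchored in the membrane by lipid, was at 17.97, 11.01 and 18.96 FPKM among BCB-negative, against 23.8, 20.4 and 37.0 FPKM among BCB-positive oocytes. Its class means were 16.0 ± 4.33 and 27.1 ± 8.77 FPKM (SD, n = 3 oocytes), with a difference of 0.72 (SD 0.42). It was 0.48 without BCB-positive oocyte 3. SNAP47 also fell short of 1.5-fold once BCB-negative oocyte 2, the low one, was left out. STX2, a plasma membrane syntaxin, was at 4.42, 4.38 and 1.46 FPKM and then at 6.58, 4.52 and 7.86 FPKM. The classes were barely apart, with 61 counts in BCB-negative oocyte 1 and 67 in BCB-positive oocyte 2. The STX2 difference was 0.79 (SD 0.52), and 0.41 without BCB-negative oocyte 3, which was the low one. With size factors the STX2 classes overlapped.

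STX4, a plasma membrane syntaxin of regulated secretion, had the widest spread among genes above 0 in every oocyte, 35.8-fold. It was at 2.43, 3.90 and 5.27 FPKM among BCB-negative, against 0.45, 0.26 and 9.30 FPKM among BCB-positive oocytes. BCB-positive oocytes 1 and 2 were below all BCB-negative oocytes and BCB-positive oocyte 3 above them. The difference was -0.83 (SD 1.24) over the 6 oocytes, but -1.81 without BCB-positive oocyte 3. STX4 overlaps an uncharacterised long noncoding RNA gene in the reference annotation, which stood at 1.66 to 12.9 FPKM, and the counting is not stated to use strand, so its value is uncertain.

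**Figure D3:**
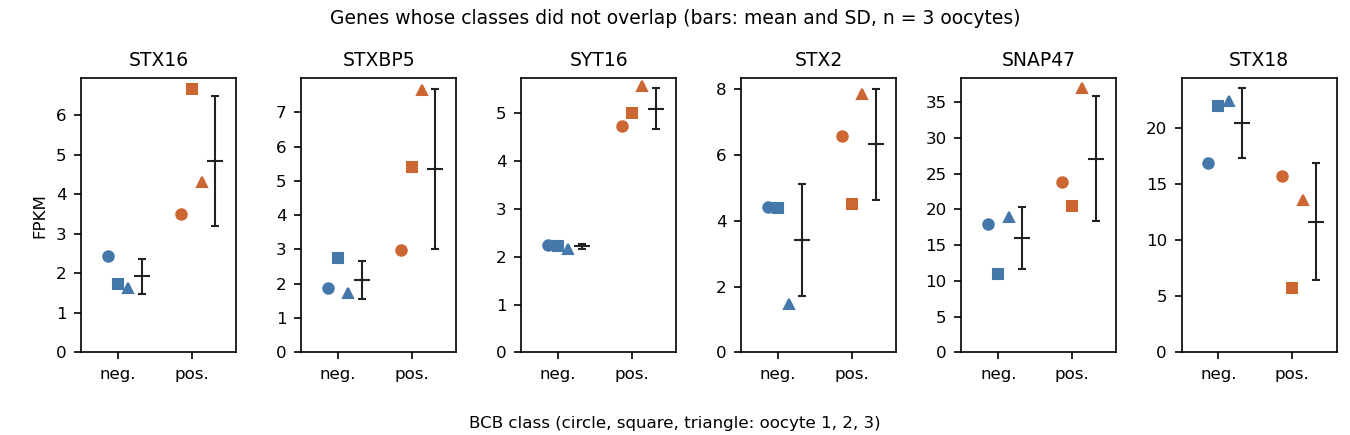
FPKM of 6 of the 7 genes whose classes did not overlap and lay at least 1.5-fold apart, in BCB-negative (blue, neg.) and BCB-positive (orange, pos.) oocytes 1 (circle), 2 (square) and 3 (triangle), with the class mean and SD beside them; each axis starts at 0. SYT16 has the tightest classes, and STX2 and STX18 have oocytes of both classes at nearly the same level.

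Synaptotagmins carry C2 domains, which in several members bind calcium and membrane. Of the 11 listed, 5 passed the minimum, and SYT2 led in every oocyte with 47.9% to 75.9% of the summed synaptotagmin FPKM. SYT2, a fast calcium sensor of synapses, was at 69.3, 45.5 and 80.5 FPKM among BCB-negative, against 77.5, 102 and 52.6 FPKM among BCB-positive oocytes, with overlapping classes (difference 0.24, SD 0.45). SYT14 and SYT5 followed, with means of 17.3 and 14.2 FPKM. SYT5 was at 11.02, 19.99 and 21.8 FPKM and at 14.9, 8.26 and 8.98 FPKM, where BCB-negative oocyte 1 and BCB-positive oocyte 1 overlapped (difference -0.66, SD 0.46). SYT14 had a second gene ID in the files, whose transcripts the reference assigns to SYT14. Summed over both IDs, the level was 18.6, 25.9 and 35.7 FPKM and 13.6, 21.6 and 42.4 FPKM, with a difference of -0.15 against -0.30 for the first ID alone. SYT1, the best known sensor of neurotransmitter release, was listed in 2 oocytes, BCB-negative oocyte 1 with 0.03 FPKM and BCB-positive oocyte 3 with 0.49 FPKM.

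SYT16 (gene 100522358), an atypical synaptotagmin not thought to act through calcium, had the smallest spread within classes of the 36 genes. It was at 2.25, 2.23 and 2.16 FPKM among BCB-negative, against 4.73, 5.0 and 5.56 FPKM among BCB-positive oocytes. The classes did not overlap, at 2.21 ± 0.047 and 5.10 ± 0.42 FPKM (SD, n = 3 oocytes), and the BCB-positive mean was 2.30-fold the BCB-negative mean. The difference was 0.92 with a pooled SD of 0.072. That SD is the smallest of 36, and it is not a measure of how uniform the oocytes are. BCB-negative oocytes had 41, 41 and 37 counts, too few to resolve so small a spread. Summed counts were 119 in BCB-negative oocytes (exact 95% Poisson interval 98.6 to 142) and 311 in BCB-positive oocytes (277 to 348), intervals that cover counting error only. The difference lay between 0.84 and 1.16 under every rescaling, pseudocount and left-out oocyte tried. SYT16 overlaps a transcribed pseudogene in the reference annotation. SYT17 went the other way in its means, at 1.35, 5.13 and 0 FPKM and 0.74, 1.15 and 0.05 FPKM, but BCB-negative oocyte 3 was at 0 and the classes overlapped (difference -0.62, SD 1.00).

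The syntaxin-binding proteins were low throughout, from STXBP2 at a mean of 0.13 FPKM to STXBP6 at 9.43 FPKM. STXBP6, or amisyn, which binds syntaxin in place of a vesicle SNARE, was at 8.73, 12.0 and 9.55 FPKM among BCB-negative, against 9.81, 5.17 and 11.3 FPKM among BCB-positive oocytes. STXBP3, the SM protein that partners STX4, was at 7.89, 8.43 and 1.96 FPKM and at 4.15, 2.99 and 28.9 FPKM. BCB-positive oocyte 3 was the highest, as it was for STX4 and for 32.6% of all genes compared. The STXBP3 difference was 0.44 (SD 1.30) with it and -0.47 without it.

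The classes did not overlap for STXBP5 (gene 100152912), or tomosyn, which holds syntaxin and SNAP25 relatives away from vesicle SNAREs. It was at 1.87, 2.75 and 1.74 FPKM among BCB-negative, against 2.98, 5.40 and 7.66 FPKM among BCB-positive oocytes. The margin was thin, 87 counts in BCB-negative oocyte 2 against 94 in BCB-positive oocyte 1. Its means were 2.12 ± 0.55 and 5.35 ± 2.34 FPKM (SD, n = 3 oocytes), and its difference was 0.97 (SD 0.44), or 0.71 without BCB-positive oocyte 3.

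Golgi and ER SNAREs made up the most abundant group, through BET1. STX6, of the trans-Golgi network and early endosomes, came second at 179, 122 and 114 FPKM among BCB-negative, against 161, 155 and 242 FPKM among BCB-positive oocytes. Only BCB-negative oocyte 1 kept the STX6 classes from separating (difference 0.43, SD 0.35). BET1L, of traffic within the Golgi, was at 103.9, 109.4 and 104.4 FPKM and at 77.6, 105.3 and 84.1 FPKM (difference -0.26, SD 0.16). Its classes overlapped through BCB-positive oocyte 2 alone. GOSR2 and STX5, which join BET1 in fusion at the early Golgi, were at 28.1 to 45.6 FPKM and 22.2 to 35.3 FPKM, with differences of -0.07 and 0.10. GOSR1, the Golgi SNARE GS28, had the largest mean difference of the 36 genes, 1.25 (SD 0.93). It was at 6.09, 2.26 and 2.54 FPKM and at 3.67, 9.11 and 22.5 FPKM, so BCB-negative oocyte 1 exceeded BCB-positive oocyte 1. Without BCB-positive oocyte 3 the GOSR1 difference was 0.66.

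In this group STX16 was higher and STX18 lower in BCB-positive oocytes. STX16 (gene 100144526), which takes endosomal vesicles back to the trans-Golgi network, was at 2.43, 1.72 and 1.62 FPKM among BCB-negative, against 3.51, 6.68 and 4.32 FPKM among BCB-positive oocytes. Its means were 1.92 ± 0.44 and 4.84 ± 1.65 FPKM (SD, n = 3 oocytes), and its difference was 0.97 (SD 0.32). The difference was 1.02 without BCB-positive oocyte 3. Counts were low, 88 (exact 95% Poisson interval 70.6 to 108) in BCB-negative and 251 (221 to 284) in BCB-positive oocytes. STX18 (gene 100624091), the syntaxin of vesicles returning from the Golgi to the ER, was at 16.9, 22.0 and 22.5 FPKM and at 15.7, 5.77 and 13.6 FPKM. The classes nearly touched, at 140 expected counts in BCB-negative oocyte 1 and 132 in BCB-positive oocyte 1. STX18 averaged 20.5 ± 3.12 and 11.7 ± 5.23 FPKM (SD, n = 3 oocytes), a difference of -0.85 (SD 0.52). Without BCB-positive oocyte 2, the lowest, it was -0.45 and no longer 1.5-fold. STX18 overlaps an uncharacterised protein-coding gene that stood at 31.1 to 120 FPKM and itself differed by -0.52, so STX18 is uncertain.

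The classes overlapped for all 5 endosomal, lysosomal and autophagic SNAREs, too few for that count to differ from the all-gene shares of 5.75% higher and 2.66% lower. STX8, an endosomal SNARE, was at 161, 127 and 168 FPKM among BCB-negative, against 186, 167 and 177 FPKM among BCB-positive oocytes (difference 0.22, SD 0.16). Its listed transcripts were only 273 and 276 bases long. STX8 had rank 3 of the 45 genes by FPKM and rank 16 by CPM, the count scaled to library depth alone, on 1645 counts. STX7 and STX12, further endosomal syntaxins, were at 36.8 to 66.7 FPKM and 34.3 to 47.5 FPKM (differences 0.13 and 0.03). STX17, the autophagosome syntaxin, was at 23.3, 26.9 and 21.8 FPKM and at 24.4, 35.8 and 34.6 FPKM (difference 0.37, SD 0.23). SNAP29, its partner, was at 25.4, 34.6 and 39.5 FPKM and at 25.8, 26.8 and 16.9 FPKM, with a difference of -0.50 (SD 0.33). STX17 and SNAP29 thus differed in opposite directions in their means, and the classes overlapped for each. The clathrin assembly gene SNAP91 was at 17.9, 5.58 and 6.45 FPKM and at 14.5, 17.6 and 18.6 FPKM, with BCB-negative oocyte 1 among the BCB-positive oocytes (difference 0.87, SD 0.60).

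Over the 36 genes the median difference was 0.18, with 21 genes above 0 and 15 below, against a median of 0.11 over all 11493 genes. Without BCB-positive oocyte 3 the medians were 0.09 and 0.05. The median pooled SD was 0.43, against 0.54 over all genes, and for 19 of the 36 genes (52.8%) the SD exceeded the difference, as it did for 67.5% of all genes. The separated genes were low or moderate in level. Of 15 genes between 1 and 10 FPKM 5 were separated by 1.5-fold, of 12 between 10 and 50 FPKM 2, and of 9 above 50 FPKM 0. Over all genes the shares in those ranges, chosen after the values were seen, were 8.93%, 8.70% and 6.43%. The SD also fell with level. Its medians in those ranges were 0.62, 0.38 and 0.35 for genes of this set, against 0.65, 0.48 and 0.41 over all genes.

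**Figure D4:**
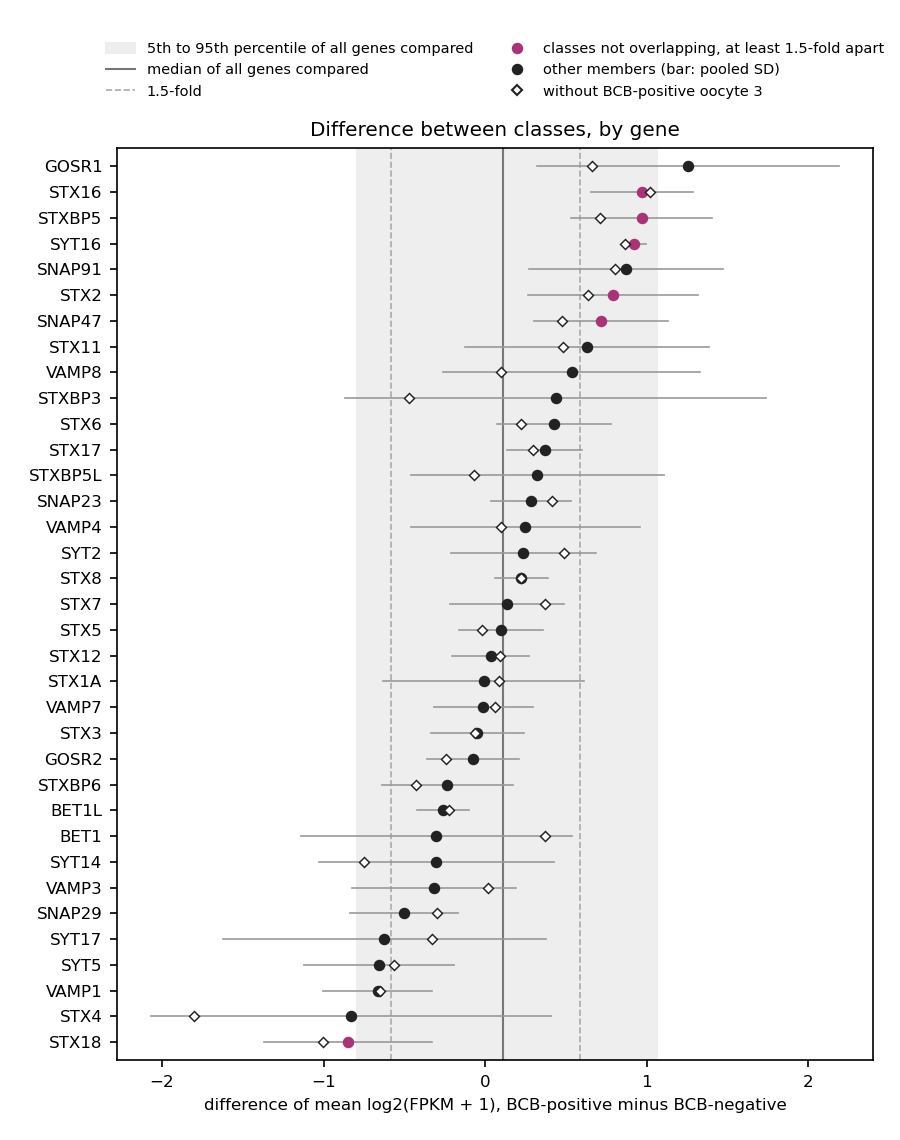
Difference of mean log2(FPKM + 1), BCB-positive minus BCB-negative, for 35 of the 36 genes: all 6 oocytes (filled, bar of 1 pooled SD to each side; purple where classes did not overlap by 1.5-fold) and without BCB-positive oocyte 3 (open). Grey shading spans the 5th to 95th percentile of all genes, -0.79 to 1.07, the solid line is their median of 0.11, and dashed lines mark 1.5-fold.

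Transcript shares were compared for the 11 genes of this set with at least 2 listed transcripts and 5 FPKM in every oocyte. In 0 of the 11 did a share separate the classes by 20 percentage points or more, as it did in 3.53% of 1956 genes. BET1L had 4 listed transcripts, of which those of 1085 and 1089 bases are nearly equal in length. The 1085-base transcript was given 39.0%, 43.9%, 0%, 0%, 0% and 30.2% of BET1L over BCB-negative oocytes 1 to 3 and BCB-positive oocytes 1 to 3. It was listed at 0 in oocytes of both classes. The 1089-base transcript held 50.5% to 94.9%. SNAP23 was drawn from 1 transcript for 87.8% to 100% of its FPKM, and VAMP7 for 98.7% to 100%.

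Other genes of the pathway, 60 in 5 lists, were set beside these. Of the 50 listed, 37 passed the minimum, of which 3 were separated by 1.5-fold as higher and 0 as lower, with a median difference of 0.11. Counts this small are near the all-gene shares of 5.75% and 2.66%, as are those of the single lists. The disassembly factors NSF, the ATPase that unwinds used SNARE complexes, and its adaptor NAPA were at 7.22 to 34.7 FPKM and 23.3 to 61.2 FPKM (differences 0.68 and -0.46, with overlapping classes). NAPG was under the minimum, at 0.96 FPKM. Of 11 compared among further SNAREs and SM proteins, 1 was higher: VPS33A, the SM protein of lysosomal fusion, at 1.17, 0 and 0.16 FPKM and then 1.58, 1.79 and 3.18 FPKM. VTI1B, an endosomal SNARE, was the most abundant of that list at 223 to 429 FPKM. Of 11 compared in priming and calcium regulation, 1 was higher: CADPS2, a priming factor of dense-core granules, at 25.9, 28.3 and 33.3 FPKM and then 41.1, 34.6 and 65.3 FPKM. Its difference was 0.63 (SD 0.35), and 0.37, below 1.5-fold, without BCB-positive oocyte 3. SYTL3, a synaptotagmin-like protein that binds RAB27, was most abundant there, at 407 to 504 FPKM.

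The exocyst tethers vesicles to the plasma membrane, and 0 of 6 genes compared in its list were separated by 1.5-fold, near the all-gene shares. RALA, a regulator of the exocyst and the most abundant of the list, was at 357, 495 and 377 FPKM and 477, 489 and 506 FPKM. Of 7 compared in cortical granule content and transport, 1 was higher by at least 1.5-fold: MYO5A, a vesicle-carrying myosin, at 2.00, 0.17 and 0.77 FPKM and then 2.32, 2.03 and 2.69 FPKM (difference 0.86, SD 0.49). The related and more abundant MYO5B also had classes without overlap, but under 1.5-fold apart, at 31.3, 31.3 and 29.1 FPKM and then 34.6, 38.6 and 45.1 FPKM (difference 0.35, SD 0.14). ASTL, the cortical granule protease ovastacin, was at 4.14, 1.79 and 1.54 FPKM and 0.18, 4.02 and 0.89 FPKM, with overlapping classes. RAB11A, a GTPase of recycling vesicles, was most abundant at 1153 to 1936 FPKM.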

How the data were processed

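RNA of 6 single pig oocytes, 3 BCB-negative and 3 BCB-positive, was primed with poly(dT) of 24 nt, amplified by PCR and sequenced, per the labels' protocols. The tools BWA, Cufflinks and RSEM and the build Sscrofa10.2 are listed per the submitters' processing notes. What each did, and its version, is not stated there. For each oocyte the deposited files give expected counts, which are estimates that share reads among transcripts, and FPKM values, which the authors normalised for length and depth. Genes not listed for an oocyte were taken as 0. Reads are amplified copies, so counting intervals cover counting error only.

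Symbols came from a RefSeq table of Sscrofa11.1, which held 13936 of 19300 gene IDs, and which served for names and for which genes overlap, while coordinates are not given because the builds differ. The difference was the BCB-positive minus BCB-negative mean of log2(FPKM + 1), for genes averaging 1 FPKM or more over the 6 oocytes, with the pooled SD between oocytes. It understates differences of low genes. Genes were counted where the classes did not overlap and lay at least 1.5-fold apart. The labels name no animal, so no test was made. The calculation was also run on simulated data in which all genes had the same spread, so that run does not test the genes counted here. Members and lists were chosen with earlier results of these data known. By rule, values per oocyte were given for separated genes, the 2 most abundant of each role and genes 2-fold apart in class mean. Exceptions, given in shorter form, were VAMP7, STX7 and SYT14, and below the minimum STX10, SYT3 and SYT12. Of the other lists the separated and most abundant genes are named. The values of 1 compared gene are not reported here, though it stays in the counts. Further genes were named for their role after their values were seen. Python 3.11.15, numpy 2.4.6 and pandas 2.3.3 were used.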

Additional observations from a re-analysis of the deposited data

How the results depend on the processing

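Of the 36 genes, 6 were counted as higher and 1 as lower in BCB-positive oocytes. With a mean of at least 5 FPKM required, 2 were higher and 1 lower, since fewer genes were compared, and at a 2-fold limit 0 were higher and 0 lower. That 0 goes with the pseudocount of 1 FPKM: with 0.1 FPKM the differences of STX16, STXBP5 and SYT16 were 1.26, 1.22 and 1.16, past 2-fold. A pseudocount of 0.1 FPKM, scaling to equal FPKM totals, class means compared as a ratio and no filter on low values each gave 6 and 1. Size factors gave 4 and 1, without STX2, although STX2 still differed by 0.70, and CPM gave 5 and 1. Leaving out each oocyte in turn gave 4 to 9 higher and 0 to 4 lower, the 4 lower without BCB-negative oocyte 1. With fewer oocytes to order, the shares over all genes also moved, to between 7.19% and 13.7% higher and 4.40% and 6.92% lower. STX16, STXBP5 and SYT16 were among the higher genes each time. The median difference ran from 0.08 with size factors to 0.27 with equal FPKM totals. The median over all genes moved with it, at 0.02 and 0.19 under those 2 settings. Of 461 single-gene values under the alternatives, 456 moved by less than the gene's SD. A filter on level cannot move such a value. A wide SD is rarely exceeded, as for STX4 (SD 1.24), at -0.83 and, without BCB-positive oocyte 3, -1.81. A narrow SD is easily exceeded. SYT16 (SD 0.072) moved by more than its SD with a pseudocount of 0.1 FPKM, size factors, equal FPKM totals and CPM. Of the separated genes 0 changed sign, but without overlap, leaving out an oocyte or changing the pseudocount cannot reverse it.

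Among the 37 other exocytosis genes, 3 were higher and 0 lower. Size factors, the 5 FPKM minimum and the 2-fold limit each gave 1 higher, where 4.54%, 5.65% and 2.86% of all genes were higher. No filter on low values gave 4, with NAPG added, and leaving out an oocyte gave 2 to 5 higher and 0 to 1 lower, beside the shares over all genes above. Their median was -0.07 without BCB-positive oocyte 3. Transcript shares separated the classes for 0 genes, and for 0 to 1 with an oocyte left out, the 1 being BET1L. The sum of SYT14 over both gene IDs and the set without SNAP91 were added after seeing the data and gave 6 higher and 1 lower. No paired analysis was possible because no test was made and the oocyte numbers name no shared animal or day. Few counts limit the precision of the lowest genes, such as STX16 with 88 in BCB-negative oocytes.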

Other observations

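BCB-positive oocyte 3 held the highest value of the 6 oocytes for 15 of the 36 genes (41.7%), against 32.6% of all genes compared. BCB-negative oocyte 1 held the highest value for 1 of the 36 (2.78%), against 11.6% of all genes. BCB-negative oocyte 3 held the lowest value for 11 of the 36 (30.6%), among them STX1A, STX2 and STXBP3, against 19.9% of all genes. Of the 45 genes, 36 were listed in all 6 oocytes, and 33 were at 1 FPKM or more in each of them.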
